A study of Homo sapiens with 7 samples.

Results

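Antigen presentation genes were read in HCT116 cells, a long-established line from a human colon carcinoma that is deficient in mismatch repair. The 9 genes, HLA-B, HLA-C, HLA-E, B2M, TAP1, TAP2, TAPBP, NLRC5 and CIITA, were chosen by name from the 20423 genes of the expression file, and all 9 were found in it. They make up the MHC class I chains, the peptide loading machinery and the regulators of MHC transcription, a set of interest in mismatch-repair-deficient tumours. The values come from 1 polyA RNA library of HCT116 cells grown in McCoy 5A medium with serum. The labels give the same growth text for every sample of the series, so they do not say whether the cells of this library had been through the G418 selection for a piggyBac transposon. No agent other than G418, such as an interferon, is named. The other 6 samples of the series are 2 libraries of transposon insertions made by the piggyBac transposase fused to SP1, 3 made by the wild-type transposase, and 1 list of SP1 ChIP-seq peaks. Their positions are in hg18, no gene positions in that build were used here, and so they were not tied to the 9 genes.

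MHC class I molecules carry peptides from inside the cell to its surface, where CD8+ T cells and natural killer cells read them. A polymorphic heavy chain pairs with the light chain beta-2-microglobulin, and the proteasome cuts the peptides. The TAP1 and TAP2 transporter subunits together pump the peptides into the endoplasmic reticulum, and tapasin (TAPBP) bridges TAP to the waiting heavy chain. NLRC5 drives transcription of class I genes and CIITA that of class II genes, both without binding DNA themselves: they join a complex of RFX, CREB or ATF and NF-Y factors on promoter elements called the X and Y boxes. Interferon gamma raises the pathway, in part through IRF1, and tumours can escape T cells by losing parts of it.

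The promoters of HLA-B, HLA-C and B2M carried the X2 and Y box letters at matching spacing, and each of the 6 genes with a promoter sequence carried an interferon element in at least 1 window. Promoter windows of 300 bases, 250 before and 50 after the annotated start, were at hand in RefSeq sequence (GRCh38.p14) for 6 of the 9 genes: HLA-B, HLA-C, B2M, TAP1, TAP2 and TAPBP. HLA-E, NLRC5 and CIITA were not among them. A stretch for each gene is printed 5′ to 3′ on the strand of the gene, with capitals for every match inside it to the motifs searched. Some matches lie outside these stretches, among them the GC box of HLA-C at -235 to -230. The stretches are shown because they let the shared elements be read letter by letter. Positions count from the annotated start, with negative numbers before it. These stretches come from the reference genome, not from the alleles of HCT116.
HLA-B, chr6:31357220-31357359, minus strand, bases -180 to -41: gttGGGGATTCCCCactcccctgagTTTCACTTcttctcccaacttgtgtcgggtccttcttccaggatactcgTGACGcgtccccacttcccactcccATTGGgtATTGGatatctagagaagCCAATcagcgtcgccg
HLA-C, chr6:31272133-31272272, minus strand, bases -180 to -41: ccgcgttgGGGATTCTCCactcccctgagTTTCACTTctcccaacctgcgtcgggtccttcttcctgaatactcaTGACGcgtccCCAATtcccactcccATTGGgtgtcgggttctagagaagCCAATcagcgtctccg
B2M, chr15:44711367-44711476, plus strand, bases -150 to -41: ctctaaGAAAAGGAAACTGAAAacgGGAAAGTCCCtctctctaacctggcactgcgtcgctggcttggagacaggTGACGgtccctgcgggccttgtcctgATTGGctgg
TAP1, chr6:32853745-32853844, minus strand, bases -140 to -41: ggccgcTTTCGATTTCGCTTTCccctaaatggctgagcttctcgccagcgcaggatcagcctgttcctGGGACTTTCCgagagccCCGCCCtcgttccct
TAP2, chr6:32838760-32838809, minus strand, bases -70 to -21: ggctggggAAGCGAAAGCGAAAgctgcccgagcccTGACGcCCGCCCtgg
TAPBP, chr6:33314079-33314138, minus strand, bases -60 to -1: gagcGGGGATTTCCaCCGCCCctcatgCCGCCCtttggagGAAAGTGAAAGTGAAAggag

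In HLA-B, HLA-C and B2M the X2 core TGACG, the heart of CREB and ATF sites, was followed by ATTGG, the inverted CCAAT of the Y box that NF-Y binds. The gap between the elements was 20 bases in HLA-B, 20 in HLA-C and 21 in B2M. A search of both strands for TGACG with ATTGG 15 to 25 bases after it matched 157 of 35114 RefSeq windows, or 0.447%. Since a gene can have several windows, counts of genes are set against the 12633 genes of the expression file with a window, of which 0.784% held the pair in any of them. Taken singly the letters are common: ATTGG lay in 34.6% of all windows and TGACG in 24.6%. Between the HLA-B and HLA-C promoters the 250 bases before the start were 89.0% identical, against 49.5% between HLA-B and B2M, so the HLA-B and HLA-C promoters are near-copies of one sequence and do not count as separate instances. TAP2 held a TGACG without the pair, and TAP1 and TAPBP held no TGACG in these windows.

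The interferon element AANNGAAA, the core that IRF factors bind, was found in all 6 genes on one strand or the other, against 23.2% of all genes with a window and 22.8% of all windows. A longer form, with the letters GA directly before it, was found in B2M, TAP1, TAP2 and TAPBP, against 4.12% of all such genes and 3.57% of windows. In B2M, TAP1, TAP2 and TAPBP the element was doubled, with the matches overlapping, whereas HLA-B and HLA-C each had 1. A match to the NF-kappa-B consensus was found in 5 of the 6, all but TAP2, against 8.89% of genes and 5.91% of windows. In HLA-B and HLA-C it lay just before the interferon element. The GC box GGGCGG, the core that SP1 binds, was found in 4 of the 6, HLA-C, TAP1, TAP2 and TAPBP, a share close to the 67.7% of all genes with a window; of windows 44.95% held it. TAP1 had a second annotated window, with a GC box and no interferon element. The motifs were chosen with these sequences in view, and a match is a run of letters, not a measured binding site.

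**Figure D1:**
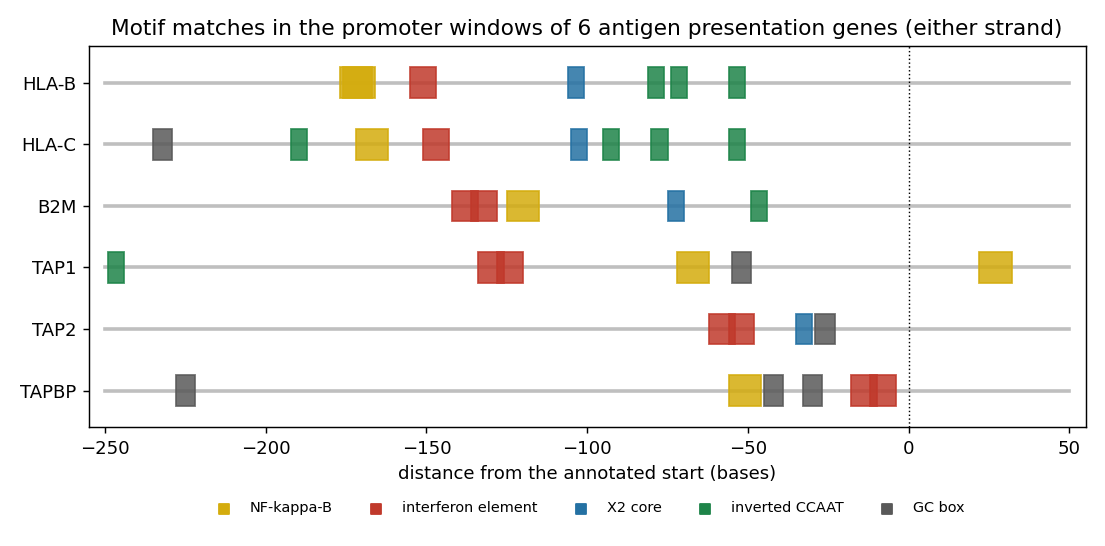
Positions of motif matches on either strand in the promoter windows of 6 antigen presentation genes, in bases from the annotated start at 0; boxes span the matched letters and colours give the motif. HLA-B, HLA-C and B2M show the X2 core before an inverted CCAAT, with 20, 20 and 21 bases between them, and all 6 genes show an interferon element, which in TAPBP lies closest to the start.

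The 9 genes spanned nearly the whole range of expression, from HLA-C near the top to CIITA near the bottom. Levels are RPKM, reads per kilobase of transcript scaled to the number of mapped reads, so they can be set side by side between genes of different length. Of the 9 genes 8 stood at or above 1 RPKM, against 57.0% of all genes of the file. At or above 10 RPKM stood 7 of 9 (24.4% of all genes), and at or above 100 RPKM 3 of 9 (2.43%). The median of the 9 was 20.7 RPKM, and the median of all genes was 1.91 RPKM. These genes were chosen by name with earlier results known, so the counts describe the set and carry no test. With 1 library there is no replicate, and no difference between any 2 of these levels can be set against replicate error.

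**Figure D2:**
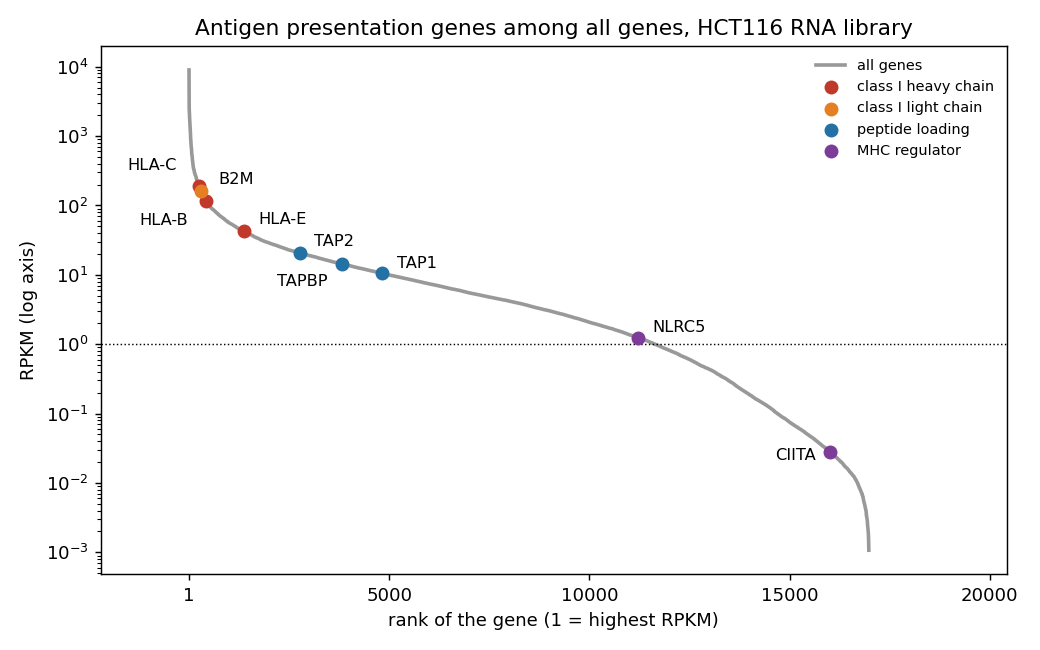
RPKM (log axis) against rank for all genes at or above 0.001 RPKM in the HCT116 RNA library (grey line), with the 9 antigen presentation genes as coloured points by role; the dotted line marks 1 RPKM. The class I chains sit on the steep left end at 42.1 to 190 RPKM, the loading genes between 10.5 and 20.7 RPKM, NLRC5 just above the line and CIITA far below it.

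The class I chains were among the most abundant transcripts. HLA-C, a classical heavy chain that also serves as the main ligand of killer cell receptors, stood at 190 RPKM and rank 241. B2M, the light chain that every class I molecule needs to fold and reach the surface, followed at 159 RPKM and rank 295. HLA-B, the most polymorphic classical heavy chain, stood at 115 RPKM and rank 426. These 3 lay above 98.8%, 98.6% and 97.9% of all genes. HLA-E, a less polymorphic heavy chain that shows peptides from the leaders of other class I chains to natural killer cells, was lower at 42.1 RPKM and rank 1368. It reached 0.222 times the level of HLA-C and 0.365 times that of HLA-B.

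Among the other class I loci the non-classical HLA-F and HLA-G stood at 11.98 and 10.13 RPKM. HLA-H, a pseudogene, was listed at 21.5 RPKM, and the pseudogenes HLA-J and HLA-L at 5.04 and 1.86. All 8 genes of the class I chain list, B2M included, were at or above 10 RPKM, against 24.4% of all genes. The summed level of HLA-B, HLA-C and HLA-E was 347 RPKM, or 2.18 times that of B2M. The class I loci are near-identical in long stretches, and hg18 carries single alleles of these highly variable genes. How the reads of HCT116 were divided among the loci, or lost, is not stated in the sources used, so the order of the heavy chains, the levels of HLA-F, HLA-G and the pseudogenes, and the ratio to B2M are uncertain.

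Class I-like chains, apart from PROCR, were lower than the class I chains. PROCR, the endothelial protein C receptor, stood at 40.9 RPKM. MR1, which shows vitamin B metabolites to MAIT cells, and HFE, which takes part in iron control, stood at 3.11 and 3.10 RPKM. FCGRT, the neonatal Fc receptor, was at 0.860 and CD1D, which shows lipids to NKT cells, at 0.0453. Of the 6 such genes in the file 3 were at or above 1 RPKM, against 57.0% of all genes.

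The 3 peptide loading genes of the set stood close together, about an order of magnitude below B2M. TAP2 was at 20.7 RPKM and rank 2767, TAPBP at 14.3 and rank 3826, and TAP1 at 10.5 and rank 4831. TAP1 and TAP2 form a heterodimer, and the TAP1 level was 0.505 times that of TAP2. B2M exceeded TAP2 7.69-fold, TAPBP 11.1-fold and TAP1 15.2-fold. Within the ABCB family of transporters, to which the pair belongs, TAP2 was the highest of 11 genes in the file, above ABCB8 at 11.1 RPKM and TAP1.

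The partners of tapasin that serve all glycoproteins were far higher than tapasin. The lectin chaperone calreticulin (CALR) stood at 274 RPKM, the lumenal chaperone HSPA5 at 181, calnexin (CANX) at 58.9 and the disulphide isomerase PDIA3 at 45.8. The tapasin relative TAPBPL, a peptide editor specific to class I, was at 0.761. The aminopeptidases that trim peptides in the endoplasmic reticulum were low, ERAP1 at 1.38 RPKM and ERAP2 at 0.104. Of the 10 loading genes fixed in the list 8 were at or above 1 RPKM, against 57.0% of all genes. The median of the list was 17.5.

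The interferon-inducible proteasome subunits were low beside the constitutive subunits they replace. PSMB8 stood at 0.413 RPKM, against 126 for PSMB5, a ratio of 0.00327. PSMB9 stood at 4.99 RPKM, against 156 for PSMB6, a ratio of 0.0321. PSMB10 stood at 19.8 RPKM, against 197 for PSMB7, a ratio of 0.1001. The inducible subunits thus followed the order PSMB10, PSMB9, PSMB8 while the constitutive ones lay within 126 to 197 RPKM. The proteasome activator subunits PSME1 and PSME2, also known as PA28 alpha and beta, stood at 74.7 and 43.1 RPKM.

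The genes of the MHC class II region that surround TAP1 and TAP2 had unequal levels. In the order of the RefSeq annotation the genes run HLA-DOB, TAP2, PSMB8, TAP1, PSMB9, HLA-DMB and HLA-DMA. Their levels in that order were 0.438, 20.7, 0.413, 10.5, 4.99, 1.01 and 6.001 RPKM. TAP2 and TAP1 thus stood on both sides of PSMB8, the lowest of the row, and TAP2 was 50.1 times PSMB8. TAP1 and PSMB9 are transcribed away from each other, with their annotated starts 488 bases apart, and TAP1 stood at 2.09 times PSMB9. The TAP1 window next to PSMB9 held 2 interferon elements and 1 GC box, and the PSMB9 window held 2 GC boxes and no interferon element. The PSMB9 window reaches only 250 bases before the PSMB9 start. The TAP1 elements lie between the starts of these genes but outside that window, so its lack of an element depends on the window length. Whether counting used the strand of the reads is not given, so reads of overlapping or antisense transcripts in this dense region cannot be assigned with certainty.

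Elsewhere the neighbours of the 9 genes gave no common level. HLA-C and HLA-B lie next to each other, between POU5F1, the stem cell factor, at 0.212 RPKM and the stress ligand MICA at 16.8. B2M, on chromosome 15, lies between PATL2 at 0.242 and TRIM69 at 0.336 RPKM, both far below its own 159. TAPBP, at 14.3 RPKM, lay in level between its neighbours RGL2 at 16.4 and ZBTB22 at 6.54 RPKM. The genes beyond these, WDR46, PFDN6 and DAXX, were higher, at 26.6, 49.4 and 34.1 RPKM. Of 40 distinct neighbours, up to 3 on each side, 27 were at or above 1 RPKM, against 57.0% of all genes. The median of the 40 was 6.27 RPKM.

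**Figure D3:**
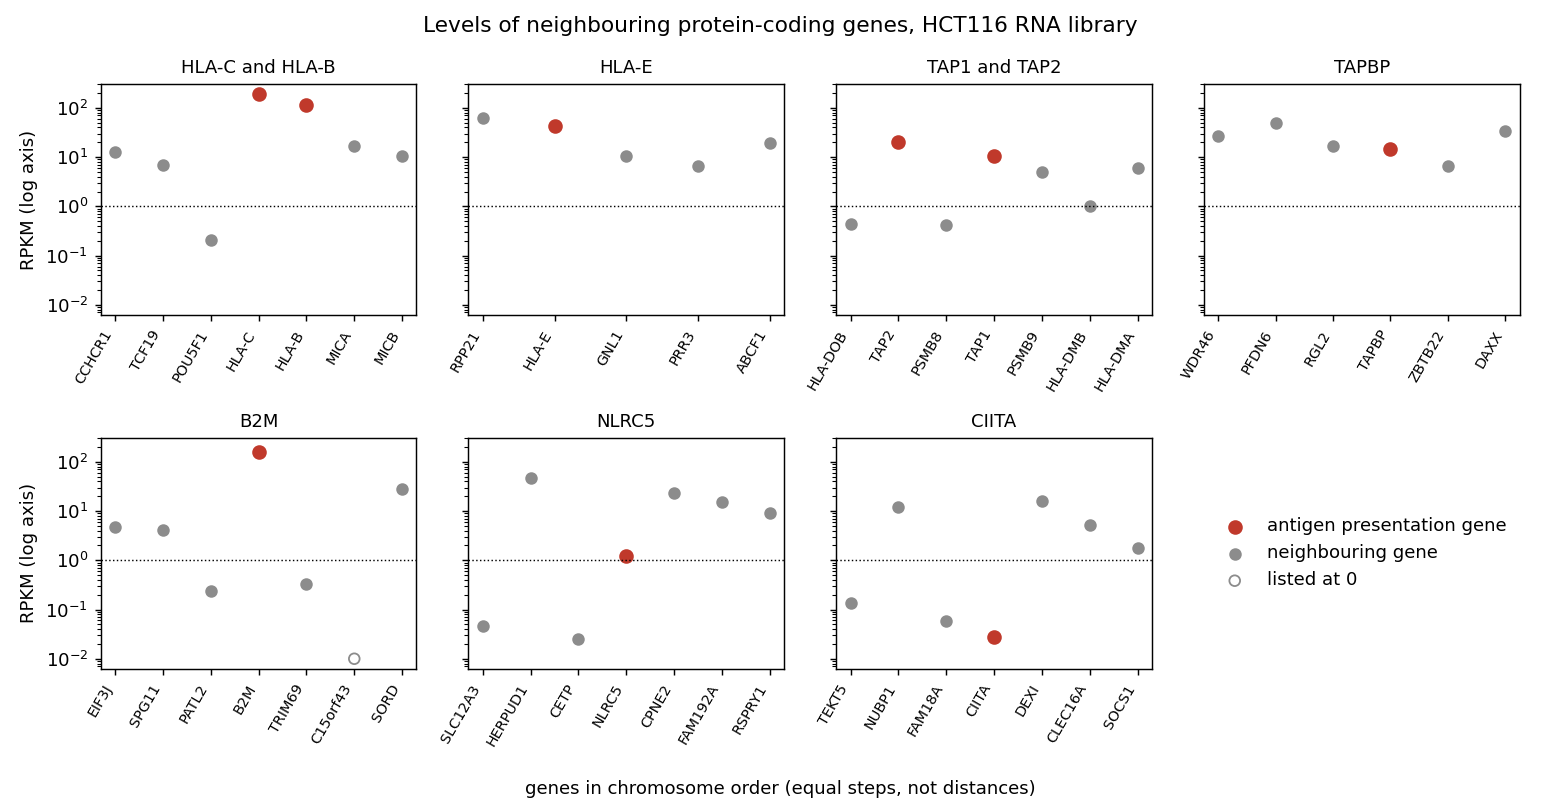
RPKM (log axis) of protein-coding genes next to the 9 antigen presentation genes, in chromosome order with equal steps; red points are the 9 genes, grey points their neighbours, an open circle a gene listed at 0, and the dotted line 1 RPKM. B2M stands far above PATL2 and TRIM69, TAP2 and TAP1 stand on both sides of PSMB8 at 0.413 RPKM, and CIITA is the lowest gene of its row.

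Both regulators were low, and CIITA was close to the floor of the file. NLRC5, the class I transactivator, stood at 1.24 RPKM and rank 11208, below the median of all genes. CIITA, the class II transactivator, stood at 0.0276 RPKM and rank 16008. Of the 17025 genes listed above 0 only 1017, or 5.97%, were lower than CIITA. NLRC5 was thus 45.03 times CIITA, a ratio between a low and a very low value whose precision is unknown, since the number of reads behind them is not given. In RNA from bulk cells a low level in all cells and a higher level in a few cannot be told apart. In the NLR family, to which both belong, NLRC5 was the median of 11 genes and CIITA was second from the bottom, above the inflammasome sensor NLRP3 at 0.0207. The highest was the mitochondrial NLRX1 at 10.1 RPKM.

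Most DNA-binding partners of these regulators stood above NLRC5, with RFXAP below it. Of the RFX complex, RFXANK stood at 22.4 RPKM and RFX5 at 11.9, 9.58 times NLRC5, while RFXAP stood at 0.972. Of NF-Y, NFYC stood at 28.4, NFYA at 7.24 and NFYB at 1.40 RPKM. ATF1 stood at 10.5 and CREB1 at 2.10 RPKM. Of the 10 genes on the regulator list 8 were at or above 1 RPKM, against 57.0% of all genes. CIITA and RFXAP were the exceptions.

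The class II genes, the known targets of CIITA, were mostly low. Of 16 class II chain and loading genes in the file 6 were at or above 1 RPKM, against 57.0% of all genes. The median of the 16 was 0.562 RPKM, below the 1.91 of all genes. HLA-DRA, the nearly monomorphic alpha chain of HLA-DR, stood at 1.98 RPKM and HLA-DRB1 at 1.90, and HLA-C was 95.8 times HLA-DRA. HLA-DQB1 stood at 2.48 and HLA-DQA1, its partner, at 0.0277. CD74, the invariant chain that guides class II molecules to endosomes, was at 0.283, and the endosomal protease CTSS at 0.0105. HLA-DMA, a subunit of the class II peptide exchanger, stood at 6.001 and its partner HLA-DMB at 1.01. The highest of the list was the lysosomal thiol reductase IFI30, at 57.8 RPKM. The class II chains, too, are variable and alike in sequence, and their values carry the same uncertainty as the class I loci.

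**Figure D4:**
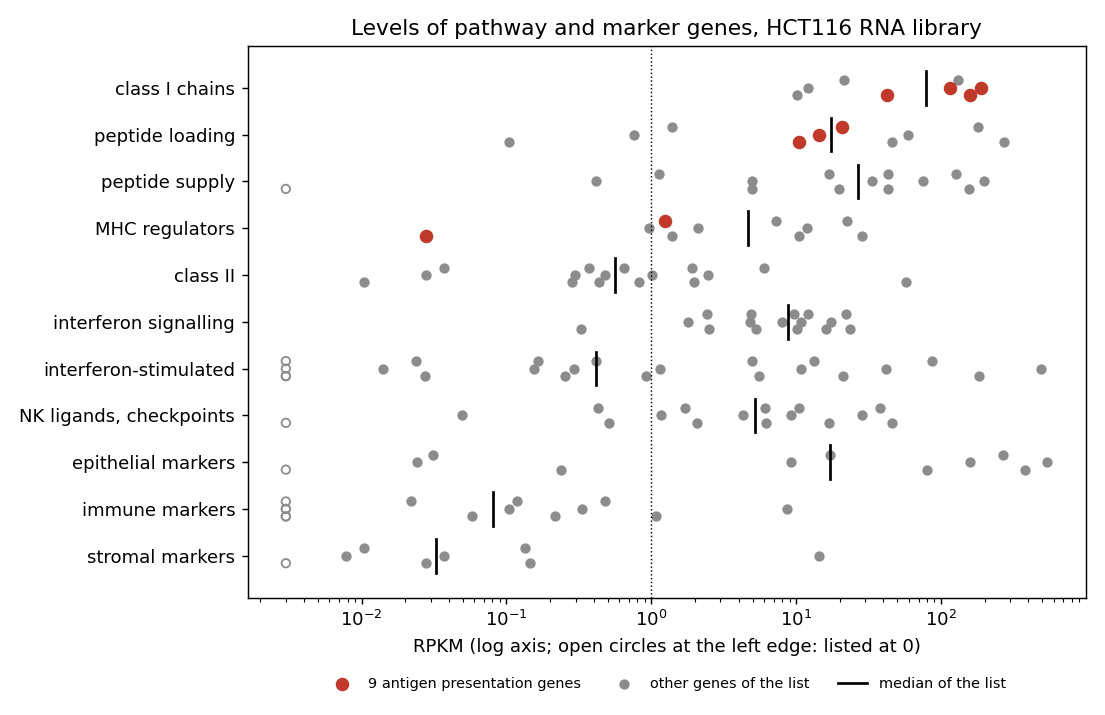
RPKM (log axis) of each gene of the pathway and marker lists, 1 row per list; red points are the 9 antigen presentation genes, grey points the other genes, open circles genes listed at 0, vertical bars list medians, and the dotted line 1 RPKM. Class I chains lie at or above 10.1 RPKM, class II genes have a median of 0.562, and immune markers a median of 0.0806.

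Most genes on the interferon signalling list were at or above 1 RPKM, the inhibitors on that list included. Of its 16 genes 15 were at or above 1 RPKM, against 57.0% of all genes, with a median of 8.83. Besides receptors, kinases and transcription factors, the list holds the inhibitors SOCS1, SOCS3 and PTPN2, at 1.80, 7.93 and 10.8 RPKM. The interferon gamma receptor chains IFNGR1 and IFNGR2 stood at 5.24 and 21.96 RPKM, and the kinase JAK1 at 15.9. The kinase JAK2, which works with IFNGR2, was the exception at 0.325. IRF1, which binds the interferon element, stood at 4.78 RPKM. The interferon genes themselves were at or near 0. IFNG was among 5 of 7 listed at 0, and the highest, IFNE, was at 0.0874.

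Interferon-stimulated genes ranged from 0 to 488 RPKM. Of 23 in the file 10 were at or above 1 RPKM, against 57.0% of all genes. Of the 23, 4 were listed at 0, and the median was 0.413. The membrane proteins IFITM3 and IFITM2 stood at 488 and 182 RPKM and the ubiquitin-like ISG15 at 86.8. In between lay UBE2L6, the enzyme that conjugates ISG15, at 21.2, IFI35 at 13.3, IFI6 at 10.8, OAS3 at 5.53 and IFIT1 at 1.14 RPKM. The GTPases GBP1 and GBP2 stood at 0.0140 and 0.165, MX1 at 0.254 and IFIT3 at 0.155, and the chemokines CXCL10 and CXCL11, the enzyme IDO1 and the apoptosis factor XAF1 were listed at 0. PSMB8 and PSMB9 belong to this list as well as to that of the proteasome. Of the genes on this list 19 had a promoter window. Of these 17 held an interferon element, against 23.2% of all genes of the expression file with a window. All 8 genes on the NF-kappa-B list were at or above 1 RPKM, with NFKB2 at 38.6 and RELA at 37.5.

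Genes through which other immune cells read the tumour cell varied widely. The stress ligands of the receptor NKG2D were present, MICA at 16.8, MICB at 10.4 and ULBP3 at 9.28 RPKM. The nectin-like ligands PVR and PVRL2 stood at 37.8 and 45.7 RPKM. The T cell inhibitor CD274, also called PD-L1, was at 0.431, and PDCD1LG2, or PD-L2, was listed at 0. Of 7 mismatch repair genes 5 were at or above 1 RPKM, against 57.0% of all genes, and MSH3 was the lowest at 0.461. An RNA level does not show whether a transcript encodes a working protein.

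The library carried epithelial markers, as its label calls for, and lacked defining markers of T and B cells. KRT19, KRT8, KRT18 and CLDN4 stood at 158 to 543 RPKM and EPCAM at 79.5. Of 11 epithelial markers 7 were at or above 1 RPKM, a share near the 57.0% of all genes. The intestinal factor CDX2 stood at 9.19 RPKM and CDX1, also on the list, at 0.0242. The differentiation markers KRT20 and VIL1 were at 0.238 and 0.0313, and LGALS4 was listed at 0. Of 14 immune markers 2 were at or above 1 RPKM, CD68 at 8.65 and ITGAX at 1.07. The pan-leukocyte PTPRC, the T cell genes CD3D and CD3E and the B cell gene MS4A1 were listed at 0. Of 8 stromal markers only COL1A1, at 14.5 RPKM, was at or above 1. A value of 0 in this file can be a failed estimate, since YWHAZ, which most cells express, is also listed at 0.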

How the data were processed

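One polyA RNA library of HCT116 cells was used. The deposited values are RPKM for RefSeq genes, which the authors computed with Cufflinks from reads aligned to hg18 with TopHat, per the deposited readme; the submitters' processing notes name Cufflinks 1.1.0. The sources used here do not give read length, depth, strand or the treatment of reads with several alignments. Transcript lengths were not at hand, so reads were not recovered from low values. With 1 library no test, SD or interval was computed.

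Symbols were matched as written, and none was duplicated. Genes were ranked over all 20423, and a gene was counted at 1 RPKM or more. Ratios are of RPKM; log2 levels use a pseudocount of 1 RPKM. Every one of the 9 genes is named, and genes named from the pathway lists were picked for their role or their place in the list after their values were seen, so not every gene at 0 is named. The genes, lists and motifs were chosen with earlier results of these data known. Neighbours and their order came from the RefSeq table of GRCh38.p14, and promoter windows from the RefSeq promoter table of the same build. Motifs were searched on both strands in Python 3.11.15 and promoters aligned with Biopython 1.88; ranking and search were tested on simulated data. Insertion and peak files were not used, because no gene positions in hg18 were used here. Planned counts of peaks and insertions at the 9 genes were therefore not made.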

Additional observations from a re-analysis of the deposited data

How the results depend on the processing

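The number of antigen presentation genes counted as expressed was 8 at thresholds of 0.5 and 1 RPKM and 7 at 5 and 10 RPKM, NLRC5 being the one lost. The median of the 9 genes lay above 86.5% of all genes, above 83.7% of genes not listed at 0, and, for the 8 at or above 1 RPKM, above 82.2% of such genes. Sums or means over lines of a symbol changed nothing, since no symbol was repeated. The median log2 level was 4.44 with a pseudocount of 1, 4.38 with 0.1 and 4.37 with 0.01. It was 5.94 with values scaled to a total of 1000000, 1.87 with values divided by the median of genes at or above 1 RPKM, and 3.73 without the heavy chains, whose reads can fall on near-identical copies. The gap between HLA-C and CIITA grew with smaller pseudocounts, at 7.54, 10.5 and 12.3 on the log2 scale for 1, 0.1 and 0.01. The CIITA level lies under the pseudocounts of 1 and 0.1, which then set the lower end of that gap. NLRC5 lay above 45.1% of all genes but above only 3.69% of genes at or above 1 RPKM. No library could be left out, because there is only 1. No paired analysis was possible because the result comes from no test and from a single library. Counts of peaks and insertions near the 9 genes, with their windows, left-out libraries and block, were not run. Depth is unknown, so the precision of values under 1 RPKM, CIITA and PSMB8 among them, cannot be given.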

Other observations

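Across the 12633 genes of the expression file with a RefSeq promoter window, levels differed with the letters of the window. The 8558 genes with a GC box in any window had a median of 4.89 RPKM and 73.5% of them were at or above 1 RPKM, against 0.243 RPKM and 39.0% for the 4075 without. The 2932 genes with an interferon element had a median of 1.56 RPKM, against 3.45 RPKM for the 9701 without. The 99 genes with the pair of X2 core and inverted CCAAT had a median of 6.29 RPKM, against 2.95 RPKM for the 12534 without. HLA-B and B2M, at 115 and 159 RPKM, had the pair and the interferon element and no GC box. HLA-C, at 190 RPKM, had the pair, the interferon element and a GC box. These are descriptions of 1 library, and base composition, which differs between such promoters, was not held constant.

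Among the genes of all the pathway lists with a promoter window, the pair was found in HLA-B, HLA-C and B2M only. It was found in none of the 14 class II genes with a window. The search took only the exact letters TGACG followed by ATTGG, so X and Y boxes spelled or turned otherwise would be missed. Whether the class II promoters hold such boxes was not tested. The HLA-F window held 2 inverted CCAAT and no TGACG, and HLA-F stood at 11.98 RPKM with a promoter 80.4% identical to that of HLA-B.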
